A study of Ovis aries with 12 samples.

Results

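The 10 genes described here encode ligands, receptors and an inhibitor of the TGF-beta family: TGFB1, TGFB2, TGFB3, INHBA, INHA, TGFBR1, TGFBR2, BMPR1B, BMPR2 and FST. They were chosen by symbol with earlier results of these data known, so the share of them that passed is not read as a property of the pathway. Values were taken from every probe set that the array annotation pairs with only that symbol. That gave 14 probe sets, and the 10 genes are among 9155 genes with such a probe set on the array. The genes are described in the corpus luteum of sheep, in pregnancy and in the cycle, and TGFB1 is set against TGFB2 and the ligands against the receptors.

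RNA of 12 ovine corpora lutea, each from a different ewe, had been hybridised to Affymetrix bovine arrays, which carry short probes designed on cattle sequence. The groups were day 14 pregnant, day 14 non-pregnant, day 12 pregnant and day 12 non-pregnant, with 3 arrays each. They rest on the source labels alone, with which most array titles conflict. Ewes of both pregnant groups had been bred to a fertile ram, whereas those of both non-pregnant groups were left unbred and had their heat checked with a vasectomised ram. No other treatment was named for any group, the glands were frozen whole, and the breed and age of the ewes and any check for a conceptus are not given in the sources used here. The question that the study's title poses is which pregnancy-associated genes counter luteolysis, the regression of the gland at the end of a cycle without a conceptus.

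TGF-beta family ligands are secreted dimers that bind pairs of type I and type II receptor kinases, which then phosphorylate SMAD transcription factors. TGFB1, TGFB2 and TGFB3 are secreted in a latent form and signal through TGFBR2 and TGFBR1. INHBA is the subunit of activin A, and with INHA it forms inhibin A, which opposes activin. BMPR1B and BMPR2 bind bone morphogenetic proteins, and FST, follistatin, binds activin and keeps it from its receptors. In the ovary the family is known for its part in follicle growth, and in the corpus luteum for links to tissue remodelling at regression.

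Values are log2 RMA values as deposited, and each difference is given on the log2 scale ± its standard error in one limma model of all 12 arrays with a mean per group and a term for array batch. A gene passed when its p was under 0.05 after Benjamini-Hochberg adjustment for the 24016 probe sets in the model. The description labels name a gene array for 4 samples, called batch A here, and a genome array for the other 8, called batch B, and the names also go with different dates. Whether that marks another array design or only another run was not settled, and the batch term stands for either. Among the groups, the arrays in batch A were 1 of day 14 pregnant, 2 of day 14 non-pregnant, 1 of day 12 pregnant and 0 of day 12 non-pregnant ewes. On the first principal component of all probe sets the 3 arrays of day 14 non-pregnant ewes were far from the rest, at 18.1 to 40.4 against -13.0 to -7.00 for the other arrays. All 13 measured markers of steroidogenic luteal cells were above the 25th percentile of level of all probe sets, and their mean level was 9.60 to 9.83 in day 14 pregnant arrays and 9.11 to 9.46 in day 14 non-pregnant arrays. On day 12 it was 9.65 to 9.79 in pregnant and 9.51 to 9.72 in non-pregnant arrays. The 3′ minus 5′ log2 value of control probe sets, a sign of RNA and labelling quality, was 1.44 to 1.60 in day 14 pregnant and 1.29 to 1.43 in day 14 non-pregnant arrays, and 1.57 to 1.60 in day 12 pregnant and 1.42 to 1.47 in day 12 non-pregnant arrays. It did not overlap between pregnant and non-pregnant arrays on either day, and its part in the pregnancy differences below was not tested. In whole glands, fewer cells of a type and less RNA per cell cannot be told apart.

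Of the 14 member probe sets, 12 lay above the 25th percentile of mean level over the 12 arrays, a log2 value of 3.59, and 2 lay under it, the dimmer ones of BMPR1B and BMPR2. The brightest probe set of each of the 10 genes was above that level, and 7 genes had a single one. TGFBR2 and FST were bright, with mean values of 11.14 and 10.57. TGFB2, INHBA, BMPR2, TGFB3, INHA, TGFB1 and BMPR1B lay between 7.25 and 5.12, and TGFBR1 was dim at 3.73, in the 27.0th percentile. These levels depend on how well sheep RNA matches each bovine probe and are not read as amounts of one transcript against another.

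On day 14, 3 of the 10 members differed between pregnant and non-pregnant glands: TGFB2 was higher in pregnant glands, and TGFB1 and the BMP receptor BMPR1B were lower. Across all genes 1.94% passed in this comparison. Without day 14 pregnant replicate 3, the batch A array of that group, 0 of the 10 passed. The same was true in a fit of only the day 14 groups. The activin subunit INHBA had the widest difference of the members and lay just outside the threshold, and TGFB3, INHA, TGFBR1, TGFBR2, BMPR2 and FST did not pass. The 10 members had a median difference of -0.04, against 0.03 over all probe sets, since members lay on both sides of 0. Values of pregnant and non-pregnant arrays did not overlap for 4 members (TGFB1, INHBA, TGFBR2 and BMPR1B), beside 20.5% of all genes.

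**Figure D1:**
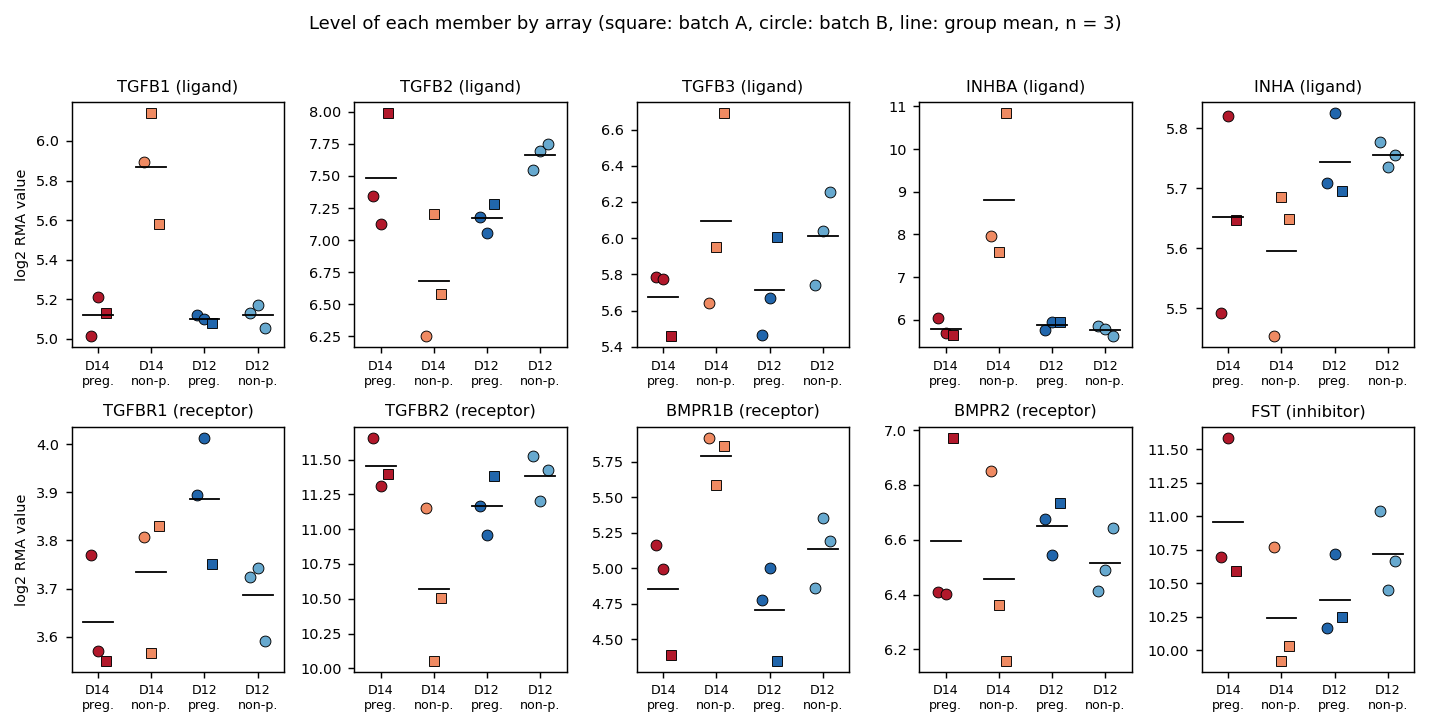
Log2 RMA value (y axis of each panel) of the brightest probe set of each of the 10 genes in every array, with groups along the x axis, squares for batch A, circles for batch B and a line at the mean of the 3 arrays. The day 14 non-pregnant arrays lie above all others for TGFB1, INHBA and BMPR1B, and their INHBA values reach 10.84.

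TGFB1 had log2 values of 5.01, 5.21 and 5.13 in day 14 pregnant glands, against 5.89, 6.14 and 5.58 in day 14 non-pregnant glands. On day 12 it had 5.12, 5.10 and 5.08 in pregnant and 5.13, 5.17 and 5.05 in non-pregnant glands. The day 14 non-pregnant arrays were thus above all the other 9, which lay close together. Those 9 values were near the array medians of 5.16 to 5.24. Without detection calls, their signal over background is unknown. TGFB1 was lower in pregnant than in non-pregnant glands on day 14 by -0.76 ± 0.13, a 1.69-fold difference, with an adjusted p of 0.0209 in limma. Within batch A the difference was -0.73 and within batch B -0.78. The call was lost when day 14 pregnant replicate 1 (adjusted p = 0.0616 in limma), day 14 pregnant replicate 3 (0.101) or day 14 non-pregnant replicate 1 (0.0693) was left out. It was also lost in a fit of only those 2 groups, where the adjusted p was 0.201.

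TGFB2, another TGF-beta ligand, ran the other way. It had log2 values of 7.35, 7.12 and 7.99 in day 14 pregnant glands, against 6.25, 7.20 and 6.58 in day 14 non-pregnant glands. On day 12 the values were 7.18, 7.06 and 7.28 in pregnant and 7.55, 7.69 and 7.75 in non-pregnant glands. The day 14 groups overlapped, because day 14 non-pregnant replicate 2, at 7.20, was above day 14 pregnant replicate 2, at 7.12. Its group means were 7.49 ± 0.448 in day 14 pregnant, 6.68 ± 0.484 in day 14 non-pregnant, 7.17 ± 0.114 in day 12 pregnant and 7.66 ± 0.106 in day 12 non-pregnant glands (SD, n = 3 each), and each group overlapped with its neighbour in the order of these means. With the batch term, TGFB2 was higher in day 14 pregnant than in day 14 non-pregnant glands by 0.98 ± 0.17, a 1.97-fold difference, with an adjusted p of 0.0217 in limma. Within batch A, the difference was 1.09, and within batch B it was 0.98. Without the batch term it was 0.81, and the adjusted p in limma was 0.102. The call was also lost in a fit of only the 2 groups (0.117) and without day 14 pregnant replicate 1 (0.0613), day 14 pregnant replicate 3 (0.154) or day 14 non-pregnant replicate 1 (0.0851).

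INHBA was the most variable member. Its log2 values were 6.03, 5.69 and 5.64 in day 14 pregnant glands, against 7.96, 7.59 and 10.84 in day 14 non-pregnant glands. On day 12 they were 5.76, 5.94 and 5.95 in pregnant and 5.85, 5.79 and 5.62 in non-pregnant glands. Every day 14 non-pregnant array was above all the other 9 arrays, and replicate 3 of batch A stood far above the other members of its own group, whose SD was 1.78 (n = 3). The difference between day 14 pregnant and non-pregnant glands was -2.88 ± 0.63, or 7.37-fold, and its adjusted p in limma was 0.05001, just above the threshold of 0.05. Within batch A it was -3.57 and within batch B -2.10. Without day 14 non-pregnant replicate 3 the difference was smaller, at -2.01, but the adjusted p in limma was 0.000187, and without replicate 2 of that group it was 0.00794. It passed in 5 of 8 other settings, among them the model without a batch term (0.0239), while with the prior variance trended on level the adjusted p in limma was 0.117.

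INHA, the inhibin alpha subunit that pairs with INHBA, had log2 values of 5.49, 5.82 and 5.65 in day 14 pregnant glands and 5.45, 5.68 and 5.65 in day 14 non-pregnant glands. The groups overlapped, and the difference was 0.07 ± 0.11, with a 95% confidence interval of -0.17 to 0.31. Its adjusted p in limma was 0.809. TGFB3, the third TGF-beta ligand, had 5.78, 5.77 and 5.46 in day 14 pregnant glands and 5.64, 5.95 and 6.69 in day 14 non-pregnant glands. Its difference was -0.33 ± 0.24 (adjusted p = 0.545 in limma), and it had opposite signs in the batches, at -0.86 in batch A and 0.14 in batch B.

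BMPR1B, a type I receptor for BMPs, had log2 values of 5.16, 4.998 and 4.39 in day 14 pregnant glands and 5.92, 5.59 and 5.86 in day 14 non-pregnant glands. The groups did not overlap. On day 12 it had 4.78, 5.001 and 4.35 in pregnant and 4.86, 5.36 and 5.20 in non-pregnant glands. In both pregnant groups the lowest value was that of the batch A array. The difference on day 14 was -1.09 ± 0.16, a 2.14-fold lower value in pregnant glands, with an adjusted p of 0.00724 in limma. Within batch A the difference was -1.33, and within batch B it was -0.84. The dimmer BMPR1B probe set, at 3.46 under the 25th percentile of level, differed by -0.20 (adjusted p = 0.569 in limma). The call of the brighter one was lost without day 14 pregnant replicate 3 (0.0788) and in a fit of only the 2 groups (0.0776). It was also lost without the batch A arrays in the day 14 non-pregnant group, which leaves 1 array there.

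TGFBR2, the type II receptor for TGF-beta, had the next largest receptor difference. Its values were 11.65, 11.31 and 11.40 in day 14 pregnant glands and 11.15, 10.06 and 10.50 in day 14 non-pregnant glands. They did not overlap, but the difference of 0.81 ± 0.23 did not pass (adjusted p = 0.114 in limma), and it was 1.12 in batch A and 0.33 in batch B. Without day 14 non-pregnant replicate 1, the highest array of its group, it was 1.25 and passed (adjusted p = 0.018 in limma). Without the batch A arrays in that group, which leaves 1 array there, it was 0.26. The dimmer TGFBR2 probe set, at 4.64, differed by 0.05.

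TGFBR1, the type I partner of TGFBR2, had 3.77, 3.57 and 3.55 in day 14 pregnant glands and 3.81, 3.57 and 3.83 in day 14 non-pregnant glands. These values are near the dim end of the array, and the difference was -0.15 ± 0.10 (adjusted p = 0.527 in limma). BMPR2, the type II BMP receptor, had 6.41, 6.40 and 6.97 in day 14 pregnant glands and 6.85, 6.36 and 6.16 in day 14 non-pregnant glands with its brightest probe set. The difference was 0.15 ± 0.20 (0.78), at 0.71 in batch A and -0.45 in batch B, and the dimmer BMPR2 probe sets gave -0.08 and 0.06. FST, the activin-binding inhibitor, had 10.70, 11.58 and 10.59 in day 14 pregnant glands and 10.77, 9.92 and 10.03 in day 14 non-pregnant glands. The groups overlapped, and the difference of 0.54 ± 0.24 did not pass (adjusted p = 0.316 in limma).

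**Figure D2:**
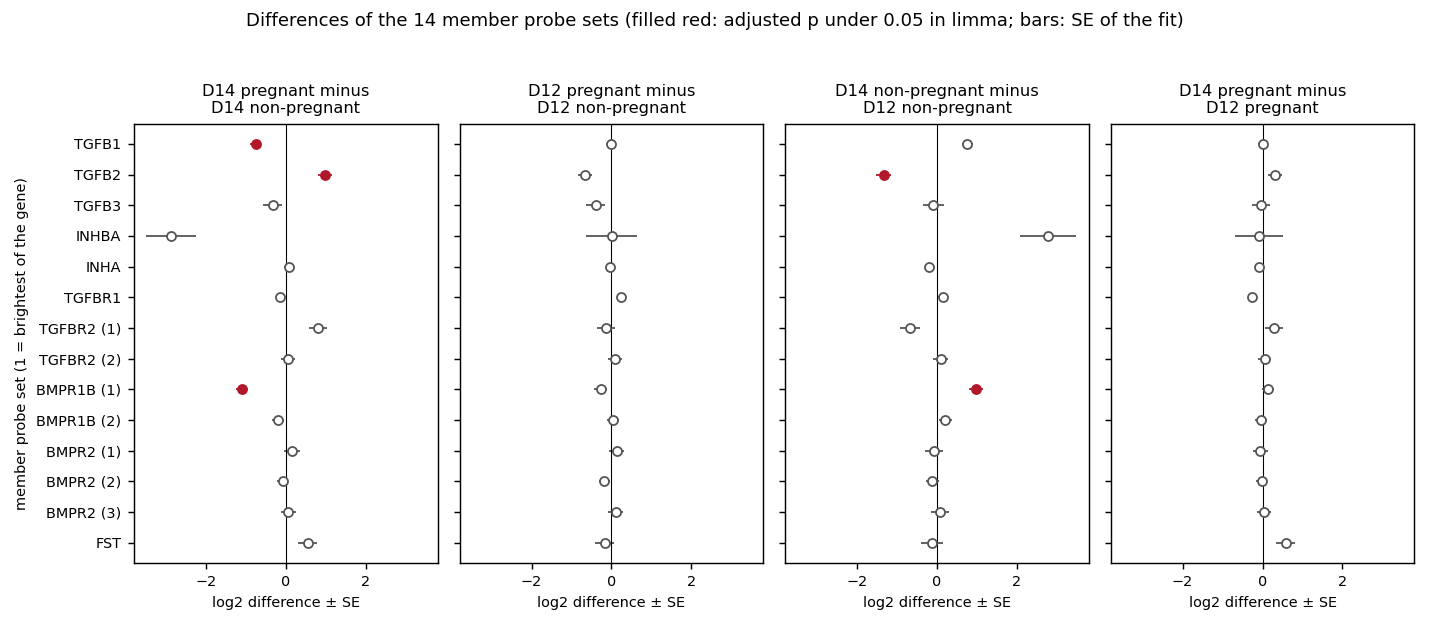
Log2 difference with its standard error (x axes) of the 14 member probe sets (rows) in 4 comparisons (panels), filled red where the adjusted p was under 0.05 in limma. On day 14, TGFB1 and BMPR1B are filled left of 0 and TGFB2 right of 0, and neither the day 12 nor the pregnant-only panel has a filled point.

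On day 12, no member differed between pregnant and non-pregnant glands: 0 of the 10 passed in limma, and 2 had an unadjusted p under 0.05. Across all genes 0% passed, with 793 at an unadjusted p under 0.05. Those 2 members were TGFB2 and TGFBR1. TGFB2, whose values are given above, was at 7.06 to 7.28 in pregnant and 7.55 to 7.75 in non-pregnant glands, without overlap. Its difference was -0.66 ± 0.17 (adjusted p = 0.41 in limma), opposite in sign to that on day 14, and within batch B it was -0.55. TGFBR1 had 3.89, 4.01 and 3.75 in day 12 pregnant glands and 3.72, 3.74 and 3.59 in day 12 non-pregnant glands, a difference of 0.25 ± 0.10 (0.624). TGFB1 differed by -0.01 ± 0.13, with a 95% confidence interval of -0.31 to 0.28, and INHBA by 0.00 ± 0.63, with an interval of -1.38 to 1.38. TGFB3 had 5.46, 5.67 and 6.0045 in day 12 pregnant glands and 5.74, 6.04 and 6.26 in day 12 non-pregnant glands (-0.39 ± 0.24, adjusted p = 0.745 in limma). BMPR1B differed by -0.27 ± 0.16 (0.727). FST had 10.17, 10.71 and 10.25 in day 12 pregnant and 11.04, 10.45 and 10.66 in day 12 non-pregnant glands, which overlapped.

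Between day 14 and day 12 of the cycle, in non-pregnant glands, 2 of the 10 members differed: BMPR1B was higher on day 14 and TGFB2 lower. Across all genes 0.502% passed. Day 14 and day 12 non-pregnant values did not overlap for 6 members (TGFB1, TGFB2, INHBA, INHA, TGFBR2 and BMPR1B), beside 22.6% of all genes. This comparison shares the day 14 non-pregnant arrays with that between pregnant and non-pregnant glands on day 14, so the results are not independent.

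TGFB2 was lower on day 14 than on day 12 of the cycle by -1.33 ± 0.19, or 2.52-fold, with an adjusted p of 0.0151 in limma. Within batch B the difference was -1.41, while no array of the day 12 non-pregnant group was in batch A. Without the batch term it was -0.98 (adjusted p = 0.0559 in limma). The call was also lost in a fit of only those 2 groups. With the batch term, that fit rests on 1 day 14 non-pregnant array, that of batch B. The call was lost without day 14 non-pregnant replicate 1 (0.0845), day 12 non-pregnant replicate 2 (0.0751) or day 12 non-pregnant replicate 3 (0.0645).

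BMPR1B was higher on day 14 of the cycle by 0.97 ± 0.17, or 1.95-fold, with an adjusted p of 0.0419 in limma, and by 0.78 within batch B. That call held without each day 14 non-pregnant array in turn, but was lost without any one of the other 9 arrays, where the difference was 0.83 to 1.08 and the adjusted p 0.0625 to 0.111. Without the batch term it was 0.65 (adjusted p = 0.151 in limma). TGFB1 was 0.76 ± 0.15 above its day 12 value and did not pass (0.0568), although it passed without the batch term (0.0109) and without day 14 non-pregnant replicate 2 (0.027) or 3 (0.0117). INHBA was 2.79 ± 0.70 above its day 12 value (adjusted p = 0.135 in limma), with 2.20 in batch B. Without day 14 non-pregnant replicate 3 the INHBA difference was 2.09 and passed (0.000314). TGFBR2 was at -0.67 ± 0.25 (adjusted p = 0.324 in limma). INHA, with values of 5.78, 5.73 and 5.76 in day 12 non-pregnant glands, differed by -0.19 ± 0.12 (0.582).

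Between day 14 and day 12 of pregnancy, 0 of the 10 members passed in limma, 2 had an unadjusted p under 0.05, and across all genes 0% passed, with 418 at an unadjusted p under 0.05. The 2 members were FST and TGFBR1. FST was at 10.59 to 11.58 on day 14 and 10.17 to 10.71 on day 12 in pregnant glands, which overlap, with a difference of 0.58 ± 0.24 (adjusted p = 0.992 in limma). TGFBR1 differed by -0.26 ± 0.10 (0.992). TGFB1 differed by 0.02 ± 0.13 (95% confidence interval -0.26 to 0.30), TGFB2 by 0.31 ± 0.17 and BMPR1B by 0.14 ± 0.15. The INHBA difference was -0.10, with an interval of -1.42 to 1.23.

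The pregnancy difference of TGFB2 itself differed between the days. It was 0.98 on day 14 and -0.66 on day 12, and the interaction term was 1.64 ± 0.25, with an adjusted p of 0.0456 in limma. TGFB2 was the 1 member of 10 to pass, beside 0.109% of all genes. The term was 1.53 within batch B. It passed in 3 of the 12 fits that left out an array, those without day 14 non-pregnant replicate 2 or 3 or day 12 pregnant replicate 3. In the other 9 it was 1.45 to 1.78 and the adjusted p 0.0976 to 0.193. Without the batch term it was 1.30 (0.181). INHBA had an interaction of -2.88 ± 0.92 (adjusted p = 0.355 in limma), which was -2.19 and passed without day 14 non-pregnant replicate 3 (0.0027). For TGFB1 it was -0.74 ± 0.19 (0.272), for BMPR1B -0.83 ± 0.23 (0.291) and for TGFBR2 0.96 ± 0.34 (0.392). For none of these is the day 14 difference shown to differ from that on day 12.

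Set against each other within each array, TGFB1 was higher relative to TGFB2 in day 14 non-pregnant glands than in any other array. The log2 value of TGFB1 minus that of TGFB2 was -2.33, -1.91 and -2.86 in day 14 pregnant glands, against -0.36, -1.07 and -1.0 in day 14 non-pregnant glands. It was -2.06, -1.96 and -2.21 in day 12 pregnant and -2.41, -2.52 and -2.70 in day 12 non-pregnant glands. The offset between different probe sets has no meaning, so only the change of this value between arrays is read, as a description with no test. The 3 day 14 non-pregnant arrays were above all the other 9. Without a batch term, the group means were -2.37 ± 0.473 (SD, n = 3) in day 14 pregnant and -0.809 ± 0.39 (SD, n = 3) in day 14 non-pregnant glands. They differed by -1.56, a 2.95-fold shift of the ratio that is not adjusted for batch. Within batch A this was -1.82 and within batch B -1.76. The means on day 12 were -2.07 ± 0.126 (SD, n = 3) in pregnant and -2.55 ± 0.144 (SD, n = 3) in non-pregnant glands. Also without a batch term, day 14 minus day 12 in non-pregnant glands was 1.74, a 3.33-fold shift, against 2.19 within batch B. Each gene has a single probe set, so no other probe set of the array bears on this ratio.

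**Figure D3:**
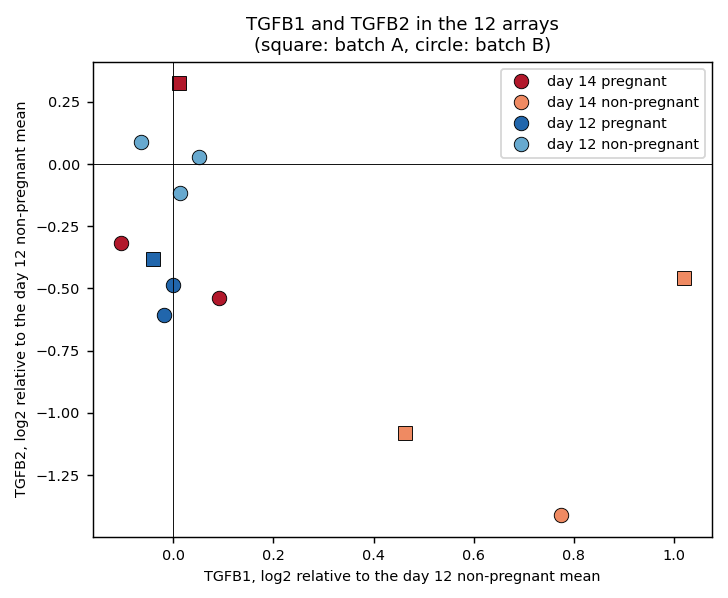
TGFB2 (y axis) against TGFB1 (x axis) in each array, both as log2 relative to the mean of the day 12 non-pregnant arrays, with colours for the groups, squares for batch A and circles for batch B. The 3 day 14 non-pregnant arrays lie to the right, at TGFB1 values of 0.46 to 1.02, and below 0 for TGFB2, while the other 9 lie within -0.10 and 0.09 for TGFB1.

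The ligand and receptor genes were set side by side by the range of their differences. On day 14, the differences between pregnant and non-pregnant glands of the 5 ligand genes had a median of -0.33 and ran from -2.88 (INHBA) to 0.98 (TGFB2). Those of the 4 receptor genes had a median of 0.00 and ran from -1.09 (BMPR1B) to 0.81 (TGFBR2). Each role had members on both sides of 0, 2 above it among the ligands and 2 among the receptors. The wider range of the ligands on day 14 rests on INHBA, which did not pass, since the other ligands ran from -0.76 to 0.98. On day 12 the median difference between pregnant and non-pregnant glands was -0.03 for ligands and -0.01 for receptors, and the ranges were 0.67 and 0.52. Over the cycle, day 14 minus day 12 in non-pregnant glands, ligands ran from -1.33 to 2.79 and receptors from -0.67 to 0.97. Between day 14 and day 12 of pregnancy the range was 0.411 for ligands and 0.541 for receptors. These are descriptions of few genes with no test. Without the batch A arrays in the day 14 non-pregnant group the ligand median minus the receptor median on day 14 was 0.26, against -0.33 with them.

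The median SD of the members over arrays was higher in both day 14 groups than in both day 12 groups. These SDs were not adjusted for batch, and the day 12 non-pregnant group had no array in batch A. Not each member followed this. The SD of BMPR1B was 0.178 in day 14 non-pregnant, against 0.331 in day 12 pregnant and 0.255 in day 12 non-pregnant glands. That of TGFB3 was 0.184 in day 14 pregnant, against 0.273 in day 12 pregnant and 0.26 in day 12 non-pregnant glands. The SD over 3 arrays was highest in the day 14 non-pregnant group for 7 members and in the day 14 pregnant group for 3 (INHA, BMPR1B and FST). The median SD of the 10 members was 0.199 in day 14 pregnant, 0.409 in day 14 non-pregnant, 0.123 in day 12 pregnant and 0.118 in day 12 non-pregnant glands. Over all probe sets the median SD was 0.126 in day 14 pregnant, 0.155 in day 14 non-pregnant, 0.124 in day 12 pregnant and 0.109 in day 12 non-pregnant glands. The model pools the spread over groups, so its standard errors are too small for a group that varies more than the others.

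The wider pathway was followed in 64 measured genes of 115 listed: other ligands, other receptors, SMADs, inhibitors, genes of latency and activation, and targets. On day 14, 0 were higher and 3 lower in pregnant than in non-pregnant glands, with a median difference of -0.04. The 3 were THBS1, TIMP3 and TGIF1. Across all genes 1.94% passed. At an unadjusted p under 0.05 there were 14 of the 64, and 1668 of all 9155 genes. Between day 14 and day 12 of the cycle, 2 were higher on day 14, THBS1 and TIMP3, and 0 lower, beside 0.502% of all genes passing. On day 12, between the days of pregnancy and in the interaction 0 passed in limma, with 3, 1 and 7 at an unadjusted p under 0.05. Of all 9155 genes 793, 418 and 1013 were under that unadjusted p.

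THBS1, thrombospondin 1, is a matrix protein that can release TGF-beta from its latent form. Its brightest probe set had log2 values of 10.35, 9.22 and 10.06 in day 14 pregnant glands and 11.54, 11.98 and 12.18 in day 14 non-pregnant glands. The groups did not overlap, and the difference was -1.92 (adjusted p = 0.00411 in limma). Of 6 THBS1 probe sets 3 passed, all lower in pregnant glands, and the other 3 differed by -0.22 to 0.18. Those that did not pass were not all dim. A probe set with a mean level of 10.01, against 10.32 for the brightest, differed by 0.18 on day 14 and -0.15 over the cycle. For the brightest, day 14 minus day 12 of the cycle was 1.84 (adjusted p = 0.018 in limma). The day 14 call and the cycle call were lost without the batch A arrays in the day 14 non-pregnant group, which leaves 1 array there. The cycle call was also lost without day 12 pregnant replicate 3 (0.0554) or day 12 non-pregnant replicate 1 (0.0663) or 2 (0.0893).

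TIMP3, an inhibitor of matrix metalloproteinases listed as a TGF-beta target, had log2 values of 8.71, 8.64 and 8.46 in day 14 pregnant glands and 9.57, 10.57 and 9.96 in day 14 non-pregnant glands. The difference was -1.40 (adjusted p = 0.0153 in limma), and day 14 minus day 12 of the cycle was 1.70 (0.0185). Without day 14 pregnant replicate 3 the pregnancy difference was -1.19 and did not pass (adjusted p = 0.127 in limma). Without the batch A arrays in the day 14 non-pregnant group, which leaves 1 array there, it was -0.90 and did not pass. The cycle call was lost without day 12 pregnant replicate 3 (adjusted p = 0.0554 in limma) or day 12 non-pregnant replicate 1 (0.0671), 2 (0.0706) or 3 (0.0645). TGIF1, a corepressor that binds SMADs, had 6.84, 6.92 and 6.70 in day 14 pregnant and 7.98, 7.72 and 8.75 in day 14 non-pregnant glands, a difference of -1.27 (adjusted p = 0.0372 in limma). It passed in 2 of the 12 fits that left out an array, and its adjusted p reached 0.228 in the others. The second TGIF1 probe set differed by -0.83 (0.0614).

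Among the other ligands, the other receptors and the SMADs no gene passed on day 14. The 11 other ligands measured lay between -0.14 and 0.27 on day 14, the 6 other receptors between -0.46 and 0.39 and the 4 SMADs, which carry the signal to the nucleus, between -0.20 and -0.03. The 23 measured targets had a median difference of -0.01, with 11 above 0, and TIMP3 was the 1 that passed.

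**Figure D4:**
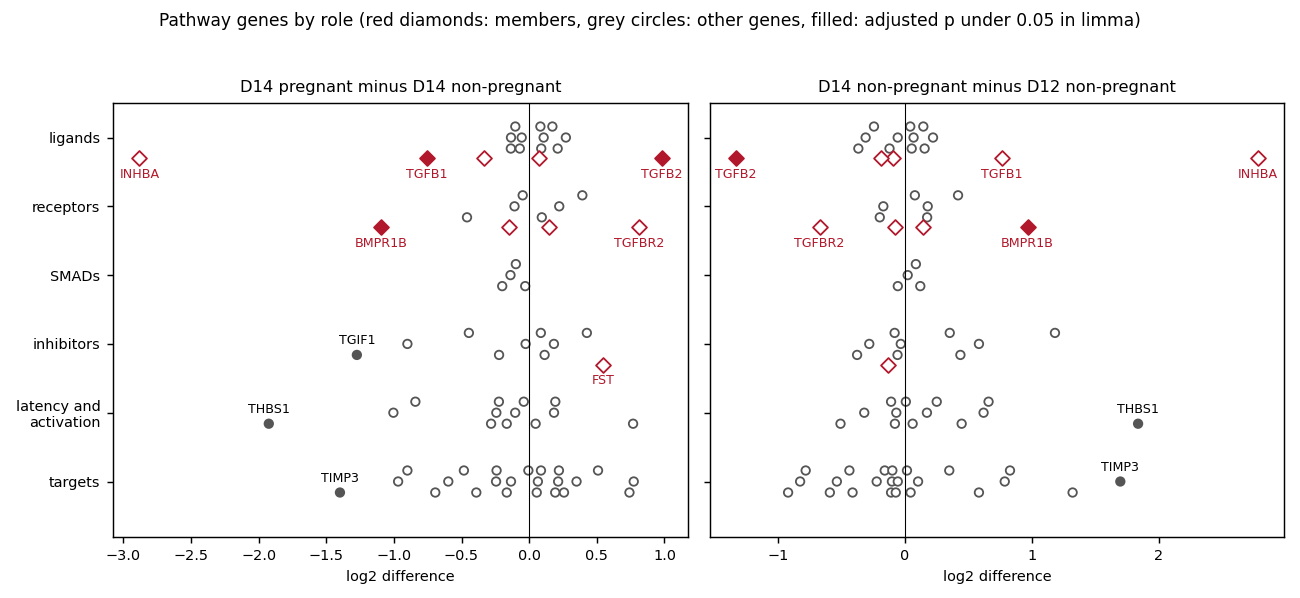
Log2 differences (x axes) of members (red diamonds) and of the other listed pathway genes (grey circles) by role (rows) between day 14 pregnant and non-pregnant glands (left) and between day 14 and day 12 of the cycle (right), filled where the adjusted p was under 0.05 in limma. The 11 other ligands lie between -0.14 and 0.27 in the left panel, and member ligands between -2.88 (INHBA, which did not pass) and 0.98. Members and lists were chosen with earlier results of these data known, so the wider range of the members is not read as a result.

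Markers of cell types were measured in the same arrays. Across all genes 1.94% passed between day 14 pregnant and non-pregnant glands. Of the 13 luteal markers 2 were higher in day 14 pregnant than non-pregnant glands and 0 lower, with a median difference of 0.43, and STAR, which carries cholesterol into mitochondria, was among them at 0.74 (adjusted p = 0.0245 in limma). Of the 12 endothelial markers 2 were higher in day 14 pregnant glands, TIE1 and CD34, while 7 were above 0 and the median was 0.08. The lowest difference in that list was -0.40. The mean level of the list was 6.77 to 6.87 in day 14 pregnant and 6.38 to 6.90 in day 14 non-pregnant arrays. Of the 10 smooth muscle markers 1 was lower, CNN1 at -1.54, while 6 were above 0 and the median was 0.13. None of the markers of fibroblasts (10), macrophages (10), T and NK cells (13), B cells (3), neutrophils and eosinophils (5), red cells (5) or follicle cells (8) passed. The mean level of the macrophage list was 6.30 to 6.83 in day 14 pregnant and 6.23 to 7.16 in day 14 non-pregnant arrays. The part of these markers in the results of the members was not tested.

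The genes whose values over the 12 arrays were most like those of TGFB1, among 9027 other named genes, were CGN, PDXK, MYO9B, PSMD11 and ABCC3, with Pearson correlations of 0.963, 0.959, 0.954, 0.943 and 0.94. Over the 9 arrays outside the day 14 non-pregnant group their correlations were 0.561, 0.502, 0.147, 0.302 and 0.0482. For TGFB2 they were CFAP70, IGFBP6, HPS5, PFKFB2 and PAG21, at 0.908, 0.88, 0.857, 0.853 and 0.851. Over the same 9 arrays those were 0.74, 0.879, 0.744, 0.7 and 0.549. PAG21 is dim, with a mean of 2.27. The arrays share their groups and normalisation, so these correlations only describe likeness.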

How the data were processed

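Log2 values were used as the authors deposited them, which the submitters' processing notes credit to RMA and Affymetrix Expression Console, without versions. RMA sets all arrays to one distribution and gives no detection calls. Array medians were 5.16 to 5.24, and the number of arrays limits precision. Groups came from the source labels. The titles conflict with those of 9 arrays and were not used.

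After leaving out 112 control probe sets, 24016 were fitted with limma 3.58.1 in R 4.3.3 (two-sided moderated test). The code was also run on simulated data with the same spread in all groups and no batch effect. That run does not test the fit for the unequal spread and batches of these arrays. Gene symbols came from the platform annotation, which can be old. Each gene was represented by its brightest probe set. Ewes were separate, and replicate numbers pair no samples.

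Members and lists were chosen with earlier results of these data known. Named genes were the members, pathway genes that passed, a few reference genes and the 5 genes most like TGFB1 and TGFB2. Alternatives were a model without batch, a random block for batch, only the groups compared, median centring and dim probe sets left out. Others were array weights, a trended robust prior and each array left out in turn. A fit without the batch A arrays in the day 14 non-pregnant group was chosen after seeing the data. It leaves 1 array in that group. The fit of only the 2 non-pregnant groups likewise rests on 1 day 14 array, because the day 12 group has none in batch A.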

Additional observations from a re-analysis of the deposited data

Results flagged for a closer look

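The pregnancy difference of TGFB2 differed between the days by the interaction term of limma. It was 1.64 on the log2 scale, with an adjusted p of 0.0456 over all probe sets. TGFB2 was higher in pregnant than in non-pregnant glands on day 14, by 0.98, and the difference on day 12, of -0.66, did not pass by itself. The term kept its sign in each of the 12 fits that left out an array and passed in 3 of them.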

How the results depend on the processing

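In a fit of only the groups compared, 0 members and 0 other pathway genes passed on day 14 (3 and 3 in the fit of all arrays). Between the days of the cycle, where 2 and 2 passed in the fit of all arrays, such a fit rests on 1 day 14 non-pregnant array. The calls were lost in it. Without the batch term or with batch as a random block, 5 other pathway genes passed on day 14, and 0 members in the interaction (1 in the fit of all arrays), as with arrays centred on their medians or dim probe sets left out. With array weights 1 member passed between the days of the cycle. Leaving out each array in turn, 0 to 4 members and 1 to 7 other pathway genes passed on day 14, 0 to 4 and 0 to 5 over the cycle, and 0 to 2 members in the interaction. Without the batch A arrays in the day 14 non-pregnant group, 1 array is left in it. TGFB1 minus TGFB2, taken from group means without a batch term, then shifted by -2.01 on day 14 (-1.79 to -1.31 when leaving out single arrays). Over the cycle it shifted by 2.19 (1.51 to 1.86). The ligand median minus the receptor median was then 0.26 on day 14 (-0.80 to 0.25 when leaving out single arrays). Over the cycle it was -0.53, as in the fit of those groups alone (-0.33 to 0.46 when leaving out single arrays), against -0.13 with all arrays. In all comparisons and settings run, no called difference of a member changed sign. The same held for TGIF1, THBS1 and TIMP3 on day 14 and over the cycle in the fits run. The signs of other genes were not followed over the settings.

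Over all probe sets, 348 passed on day 14, and 531 without the batch term, 141 with array weights and 24 in a fit of only the groups compared. Over the cycle it was 94, and 415 without the batch term and 462 with batch as a random block. In the interaction it was 21, and 50 without the batch term or with batch as a random block. Leaving out single arrays gave 88 to 510 on day 14, 28 to 254 over the cycle and 1 to 76 in the interaction. TGFB1 and TGFB2 have 1 probe set each, so a mean over probe sets gives no other value. No paired analysis was possible because the labels give no replicate numbers that pair ewes. The causes of these changes were not tested. Signal over background is unknown without detection calls, and it limits TGFBR1 and the dimmer probe sets most. It is also unknown for TGFB1 and BMPR1B, whose brightest probe sets were in the 51.3rd and 48.5th percentiles of mean level.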
